A study of Homo sapiens with 4 samples.

Results

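The long arm of chromosome 9 was followed probe by probe in an acute promyelocytic leukaemia cell line and in a clone of it that resists arsenic trioxide (ATO). Members were the non-control array probes whose hg19 position on chromosome 9 started above 70 Mb and whose signal exceeded background clearly on the 2 arrays of the naive line, of the resistant line, or of both. Of 41000 probes on the array 28220 passed that filter on dim signals, and 691 of these were members. They stood for 536 genes or transcripts, 394 of them with a gene symbol. Another 265 probes lay beyond the same position and were left out as too dim in both lines, from 956 in all. The arm was chosen because the log2 difference between the lines, taken in position order, was known to sit below 0 over much of it. The differences over the arm are therefore given here as a description, without a test.

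NB4 is a promyelocytic line that carries the PML-RARA fusion, the protein that ATO degrades. Naive NB4 was grown in 2 independent flasks, and so was the ATO resistant line, labelled NB4-VM-AsR1, each grown in RPMI medium with 10% serum. The resistant line is 1 clone, and its cells had been kept without ATO for a week before RNA was taken. Each flask gave 1 one-colour array. The comparison asks how transcript levels differ between naive cells and a clone with acquired resistance to ATO.

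Chromosome arms differ in gene content, and a change in the number of copies of an arm usually moves many of its transcripts a small way in the same direction. Loss of part of the long arm of chromosome 9 is a recurring finding in acute myeloid leukaemia. The arm carries ABL1, the tyrosine kinase gene of chronic myeloid leukaemia, the receptor gene NOTCH1, the ficolin pair FCN1 and FCN2, the ABC transporter genes ABCA1 and ABCA2, and the compact surfeit gene cluster. These arrays measured RNA, and DNA copy number was not analysed here.

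The probes that read the largest differences are oligonucleotides of 60 bases, and the first 30 bases of 4 of them are given to show what was hybridised. PTGR1 was read at chr9:114341169-114341228, ANGPTL2 at chr9:129850953-129851012 and LHX6 at chr9:124965080-124965139, all on the minus strand of hg19, and PIP5K1B at chr9:71623670-71623729 on the plus strand. No base is in capitals, because no motif was looked for in the probes. The position of each probe relative to exons and untranslated regions was not analysed here.
PTGR1: tgcaaagttgttggagcagtagggtctgat
ANGPTL2: agacagcccctcatgtctccaggacaggac
LHX6: tcagggtctattccttgcgtggattatgtg
PIP5K1B: ttcctatggacttttgcattatttcattgt
The G and C content of the whole probe was 45% for PTGR1, ANGPTL2 and LHX6, and 35% for PIP5K1B.

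All 4 arrays lay on 1 slide and came from 1 scan, and between 27921 and 28243 of the 41000 probes were well above background on an array. Markers of promyelocytes were present, with 6 of 7 measured genes above background on every array, and so were 3 of 4 B cell markers, 3 of 4 megakaryocyte markers, 1 of 4 erythroid markers and none of 5 stromal markers. The summed log2 level of the B cell markers was 0.58 to 0.81 and that of the megakaryocyte markers 0.39 to 0.98 over the 4 flasks, with the lines overlapping in both. Of 4 T cell markers 2 were above background on every array, and none was below it on all. Their summed log2 level was 0.79 and 1.24 in the naive flasks and -3.15 and -2.77 in the resistant flasks, and the part of this in the results below was not tested. Of the members 637 were well above background on all 4 arrays, 14 were saturated on at least 1 array, and 2 lacked a value on an array. A further 24 members carry the accession of a gene on another chromosome, such as HSPB1 and several ribosomal protein genes, and are not named below.

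Signals along the arm were lower in the resistant line. Of the 691 members 535 were lower and 156 higher, so 77.4% were on the lower side, beside 51.1% of all other tested probes. The median log2 difference, resistant minus naive, was -0.32, with quartiles of -0.63 and -0.034, while the other probes had a median of -0.013 and quartiles of -0.34 and 0.33. Both quartiles of the members were below those of the other probes. Most differences were small: 447 members were lower by less than 2-fold, and 88 were lower by 2-fold or more. Without the members that passed the test described below, the median was -0.30.

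The same shift was seen whichever flasks were set against each other. The median over members was -0.30 for resistant flask 1 against naive flask 1 and -0.38 against naive flask 2. For resistant flask 2 it was -0.32 and -0.36. Flasks of the same line differed by less, with a median of 0.082 for naive flask 2 minus naive flask 1 and of 0.035 for the resistant pair. All 4 comparisons between lines were therefore farther from 0 than either comparison within a line.

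**Figure D1:**
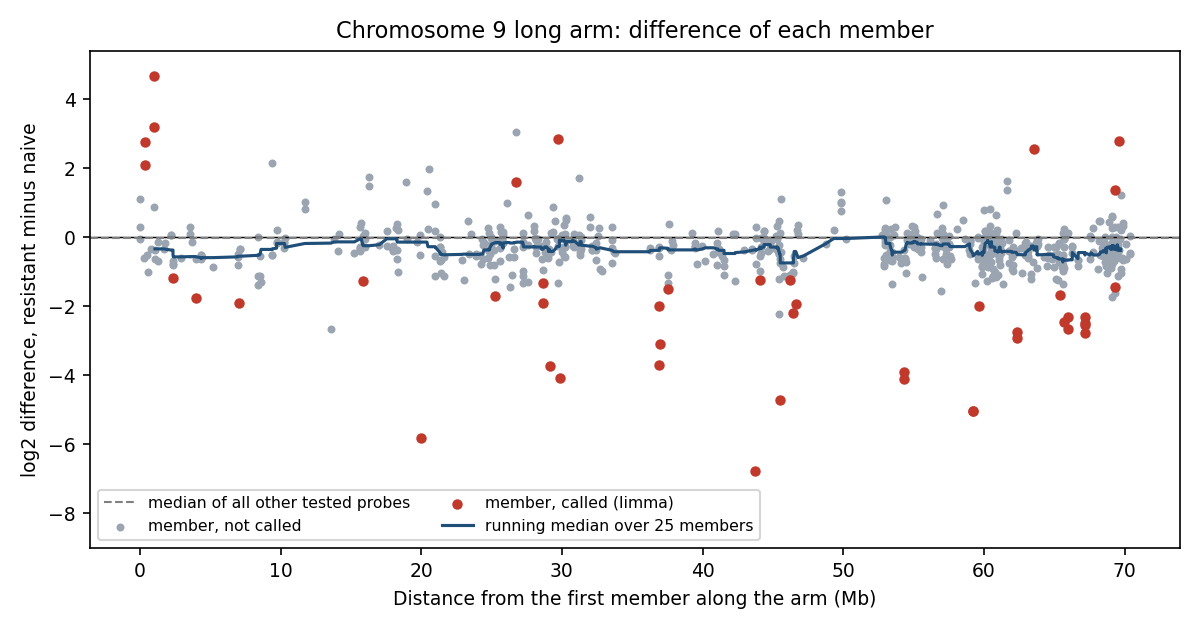
Log2 difference (resistant minus naive, y axis) of each of the 691 members against its distance from the first member along the arm in Mb (x axis). Red points passed the limma test and at least 2-fold, the blue line is the running median over 25 members, and it stays below 0 in 664 of 667 windows.

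The shift ran along the whole arm in unequal depth. A running median over 25 neighbouring members was below 0 in 664 of 667 windows. Its lowest value, -0.75, lay between 116.0 and 117.2 Mb, from SLC31A1, a copper uptake transporter, to an unnamed transcript. Its highest value, 0.0070, came directly after it, in a stretch of few probes from 117.2 to 123.7 Mb that ends at TRAF1, a signalling adaptor. In 10 Mb steps from 70 Mb on, the medians were -0.53 (n = 47 members), -0.14 (n = 45), -0.31 (n = 98), -0.27 (n = 66), -0.41 (n = 76), -0.19 (n = 108) and -0.44 (n = 217), with -0.36 (n = 34) for the end of the arm. In order of depth the first step led, followed by the steps from 130 Mb and from 110 Mb.

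Neighbours in that order were often closer than the flasks allowed to resolve. The spread between flasks of a step's median was 0.082 (SD, pooled over the 8 steps). The steps of -0.53 and -0.44 differed by little more than this, those of -0.44, -0.41 and -0.36 by no more, and neighbours among those of -0.31, -0.27 and -0.19 by no more. The step from 80 to 90 Mb was closest to 0, and its 4 comparisons between flasks of different lines ran from -0.098 to -0.0060. The last 2 steps depended on the naive flask used. From 130 to 140 Mb the values were -0.31 and -0.37 against naive flask 1 and -0.53 and -0.59 against naive flask 2, and beyond 140 Mb they were -0.16 and -0.18 against -0.39 and -0.50. The naive flasks themselves differed there by 0.15 and 0.13. These 2 steps also held the members with the highest G and C content, with medians of 45% and 55%, against 40% to 41.7% in the other steps.

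**Figure D2:**
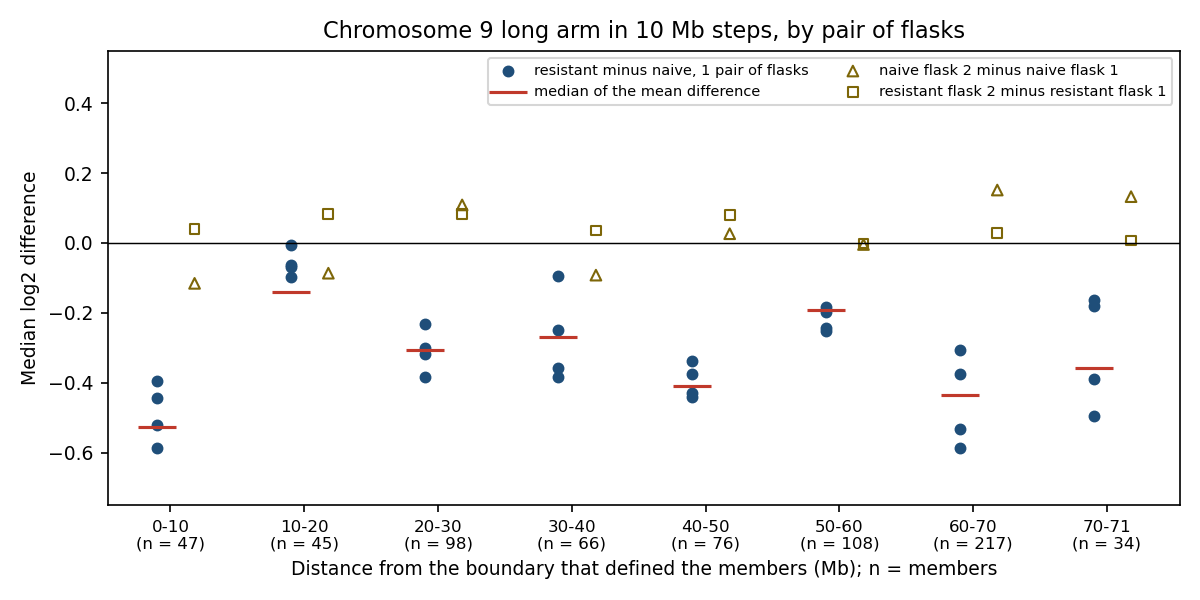
Median log2 difference of the members (y axis) in 10 Mb steps from the boundary that defined them (x axis, distance in Mb). Filled circles are the 4 comparisons of 1 resistant with 1 naive flask and all lie below 0, red bars are the medians of the mean difference, and open triangles and squares are the differences between flasks of the same line.

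G and C content and signal level were examined because both can shift array signals. In the tested probes split at 40% and 45% G and C, the members differed from the other probes by -0.37 in the lowest class, -0.34 in the middle class and -0.25 in the highest. Split by mean level into 3 classes of equal size over all tested probes, the differences were -0.20, -0.35 and -0.32 from the dimmest to the brightest. The members were below the other probes in each of the 6 classes. The part of G and C content or of signal level in the shift was not tested. The other probes alone ran from 0.086 at low to -0.12 at high G and C content.

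Among the 41 chromosome arms with at least 100 tested probes, the long arm of chromosome 9 had the second lowest median, and the lowest with quantile normalization, with both forms of normexp and without naive flask 2. All 714 tested probes beyond the centromere were used for this, with a median of -0.31. The short arm of chromosome 12 was lower, at -0.33, and the long arm of chromosome 16 followed at -0.23. The highest was the short arm of chromosome 5, at 0.21. The short arm of chromosome 9 had a median of 0.026 over 332 probes. In 3 of the 4 comparisons of a resistant with a naive flask the long arm of chromosome 9 was the lowest of all arms. Between the naive flasks it ranked 28 from the bottom, and between the resistant flasks 23.

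**Figure D3:**
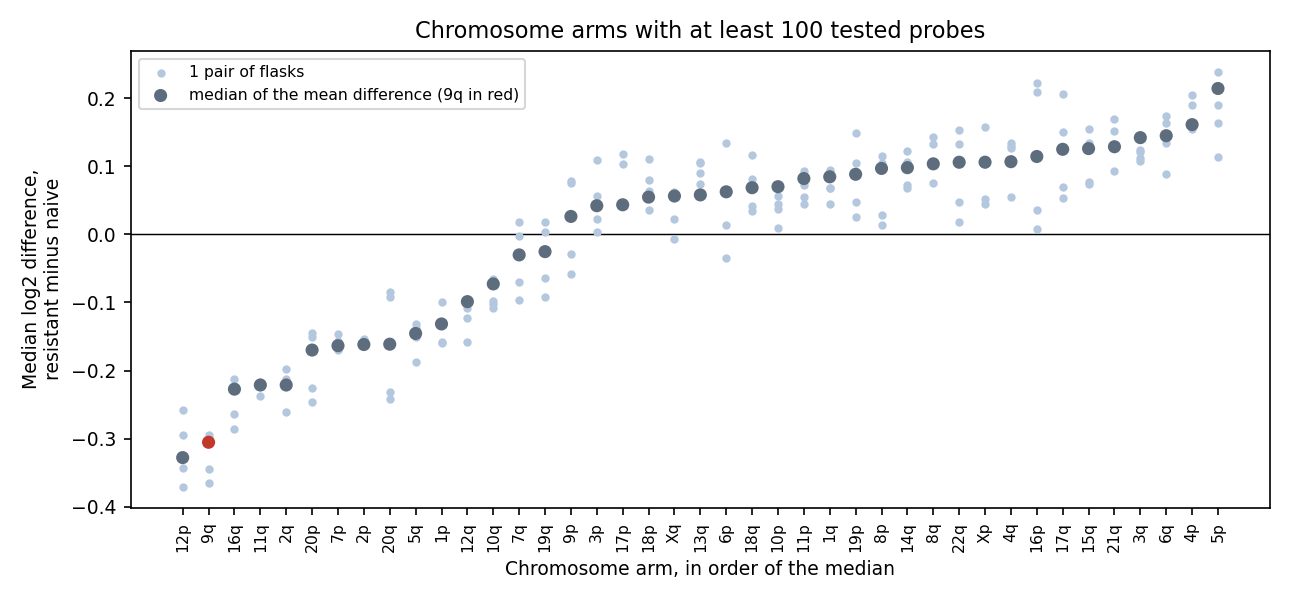
Median log2 difference (resistant minus naive, y axis) of each of the 41 chromosome arms with at least 100 tested probes, in ascending order (x axis). Large points are the median of the mean difference, with the long arm of chromosome 9 in red at -0.31, and small points are the 4 comparisons of single flasks.

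Genes read by several probes gave the same picture. Of 123 genes with more than 1 member probe, 83 were lower on every probe, 14 were higher on every probe and 26 were mixed. Lower on every probe were 67.5% of these genes, beside 34.6% of the 5152 genes read by several probes elsewhere. Taking the brightest probe of each gene, 409 of 536 genes or transcripts were lower, with a median of -0.31. The longest run of neighbours that were all lower held 25 gene names over 1.85 Mb, from BAT2L to SURF4, with differences from -1.67 to -0.092 and a median of -0.56. BAT2L is an older name of PRRC2B, which is listed beside it, so the run holds 1 gene under both names. The longest run of higher neighbours held 3 names over 0.024 Mb and ended at PIP5K1B.

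The test of single probes used limma on the log2 values of all 28220 probes with Benjamini-Hochberg adjustment. Called means an adjusted p below 0.05 and a difference of at least 2-fold. It called 36 members lower, 5.21% of 691, where 2.97% of all tested probes were called lower. It called 9 members higher, 1.3%, where 2.3% of all tested probes were called higher. The resistant flasks lay below both naive flasks in 345 of 689 members with all values, which is 50.1% where the whole array had 28.2%, and above both in 66, which is 9.58% where it had 24.6%. Since the arm was chosen on this contrast, nothing is read from these shares. With 2 flasks against 2, the smallest exact two-sided permutation p for 1 probe is 0.333, and a call here depends on limma's variance estimate shared among probes. Leaving out resistant flask 1 or resistant flask 2 left 13 and 16 members called lower and 6 and 6 called higher, and leaving out naive flask 1 or naive flask 2 gave 90 and 93 lower and 26 and 28 higher. With normexp background correction in place of the scanner's own, and likewise with the methods' t-test adjusted by Benjamini-Hochberg, no member was called, with 29 and 139 members at an unadjusted p below 0.05.

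ANGPTL2, FCN1 and FCN2 fell. ANGPTL2, an angiopoietin-like secreted glycoprotein, had log2 signals of -0.58 and -0.30 in the naive flasks and -5.33 and -5.60 in the resistant flasks, relative to the 75th percentile of each array. It fell by 5.02 on the log2 scale (SE 0.25, limma adjusted p = 0.00103). Its dimmer probe, not well above background in the resistant line, was at least 14.5-fold lower. FCN1, the ficolin of monocytes and granulocytes that binds sugars on microbes, was at 2.09 and 1.75 in the naive and -0.74 and -0.53 in the resistant flasks, a difference of -2.55 (SE 0.25, limma adjusted p = 0.00582). All 3 FCN1 probes were called, at -2.55, -2.49 and -2.31. The neighbouring FCN2, a serum lectin of the same family, was at -2.44 and -3.01 against -5.71 and -5.30 (difference -2.77, SE 0.30, limma adjusted p = 0.00871). For ANGPTL2, FCN1 and FCN2 the 2 lines did not overlap, which the rule that chose them required. The FCN2 call was lost without resistant flask 1, at an adjusted p of 0.0507.

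ABCA1, PTGR1 and UGCG, from the list of lipid genes, were lower too. ABCA1, which exports cholesterol and phospholipid from the cell, was at -0.23 and 0.28 in the naive and -3.52 and -3.84 in the resistant flasks. The difference was -3.70 (SE 0.28, limma adjusted p = 0.00303), and the lines did not overlap, which the rule that chose ABCA1 required. A second, dimmer ABCA1 probe was not well above background in the resistant line and was at least 2.64-fold lower there. PTGR1, prostaglandin reductase 1, which inactivates leukotriene B4 and prostaglandins, was at -1.73 and -2.14 in the naive flasks. It was not well above background in either resistant flask, at -8.60 and -8.83, and was at least 22.8-fold lower (limma adjusted p = 0.0008). UGCG, the enzyme that makes glucosylceramide, was at -0.63 and -0.65 against -1.93 and -1.81 (difference -1.24, SE 0.22, limma adjusted p = 0.042). A second, dimmer UGCG probe gave -0.55 and was not called. The UGCG call was lost without resistant flask 1 and without resistant flask 2, at adjusted p of 0.418 and 0.388.

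LHX6, NCS1, VAV2 and KLF9 were also called lower. LHX6, a LIM homeobox transcription factor, was at 2.31 and 2.14 in the naive flasks and -1.74 and -1.66 in the resistant flasks (difference -3.92, SE 0.22, limma adjusted p = 0.00135). Its second probe gave -4.10. The lines did not overlap on either probe, which the rule that chose LHX6 required of the first. NCS1, a neuronal calcium sensor, was at 0.72 and -0.38 against -2.78 and -2.39 (difference -2.75, SE 0.42, limma adjusted p = 0.0264), and a second probe gave -2.91. VAV2, an exchange factor that activates small GTPases, was at -0.84 and -0.27 against -3.03 and -2.68 (difference -2.30, SE 0.30, limma adjusted p = 0.0151). KLF9, a zinc finger factor of the Krüppel-like family, was at 0.71 in both naive flasks and at -0.46 and -0.50 in the resistant flasks (difference -1.19, SE 0.22, limma adjusted p = 0.045). Calls of NCS1, VAV2 and KLF9 were lost without resistant flask 1, at adjusted p of 0.1, 0.103 and 0.396, and without resistant flask 2, at 0.059, 0.0582 and 0.484.

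CDK20, CTSV, SAPCD2 and CDC14B were called lower, the first pair with a bound only. CDK20, a cyclin-dependent kinase, was at -2.90 and -2.36 in the naive flasks and not well above background in the resistant flasks, at -8.44 and -8.45, so that it was at least 14.1-fold lower (limma adjusted p = 0.000919). CTSV, the lysosomal protease cathepsin V, was at -3.97 and -5.25 against -8.51 and -8.18 and was at least 3.58-fold lower (limma adjusted p = 0.0129). SAPCD2, which acts in orienting the mitotic spindle, was at 3.45 and 3.13 against 1.74 and 1.95 (difference -1.45, SE 0.24, limma adjusted p = 0.0369). CDC14B, a dual specificity phosphatase of the cell cycle, was at -1.87 and -1.59 against -3.23 and -2.91 (difference -1.34, SE 0.25, limma adjusted p = 0.0499). For SAPCD2 and CDC14B both resistant flasks were below both naive flasks, as in 50.1% of members and 28.2% of all tested probes. CDK20 and CTSV passed the filter only through the naive line. A second CDC14B probe gave -0.94 without a call. Without resistant flask 1 and without resistant flask 2 the adjusted p was 0.343 and 0.249 for SAPCD2, and 0.432 and 0.271 for CDC14B, so both calls were lost.

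Few genes rose. PIP5K1B, a kinase that makes phosphatidylinositol 4,5-bisphosphate, was not well above background in the naive flasks, at -7.95 and -6.68, and was at -2.57 and -2.73 in the resistant flasks. It was at least 12.2-fold higher there (limma adjusted p = 0.00568). TMOD1, tropomodulin 1, which caps actin filaments, was at -7.95 and -8.13 against -5.29 and -5.09 and was at least 2.09-fold higher (limma adjusted p = 0.00353). PLPP7, a member of the phospholipid phosphatase family, was at -5.79 and -5.95 against -3.40 and -3.25 (difference 2.55, SE 0.23, limma adjusted p = 0.00446). C9orf139, a transcript of unknown function, was at -2.77 and -2.47 against -1.37 and -1.13 (difference 1.37, SE 0.24, limma adjusted p = 0.0434). The C9orf139 call was lost without resistant flask 1 and resistant flask 2, at adjusted p of 0.264 and 0.445. For PLPP7 and C9orf139 the lines did not overlap, which the rule that chose them required. PIP5K1B and TMOD1 passed the filter only through the resistant line. Of the 9 members called higher 4 lay between 70 and 80 Mb, PIP5K1B among them. The 4 genes named here lie far apart on the arm. Their probes start at 71623670 for PIP5K1B, 100362821 for TMOD1, 134184578 for PLPP7 and 139930882 for C9orf139 (hg19).

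The bounds of PTGR1, CDK20, CTSV, PIP5K1B and TMOD1 hold for the scanner's processed signal. These probes passed the filter only through the line with signal, so they had to differ. Their adjusted p rests on values below background in the other line. The dimmer ANGPTL2 and ABCA1 probes, and a dim VAV2 probe given below, also passed it only through the naive line. Normexp with an offset of 50 and bright local backgrounds reset gave smaller differences, of -2.22 for PTGR1, -1.75 for CDK20, -0.70 for CTSV, 1.62 for PIP5K1B and 0.46 for TMOD1. Each is smaller than the bound, and the calls of CTSV and TMOD1 were lost, at limma adjusted p of 0.123 and 0.324. Genes chosen by size and measured on all arrays mostly shrank under this setting too, though they kept their calls. It gave -3.17 for ANGPTL2, -3.60 for LHX6, -2.87 for ABCA1, -1.27 for FCN2 and -2.45 for NCS1. PLPP7 was at 1.08 and C9orf139 at 1.18, while FCN1, at -2.63, did not shrink.

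**Figure D4:**
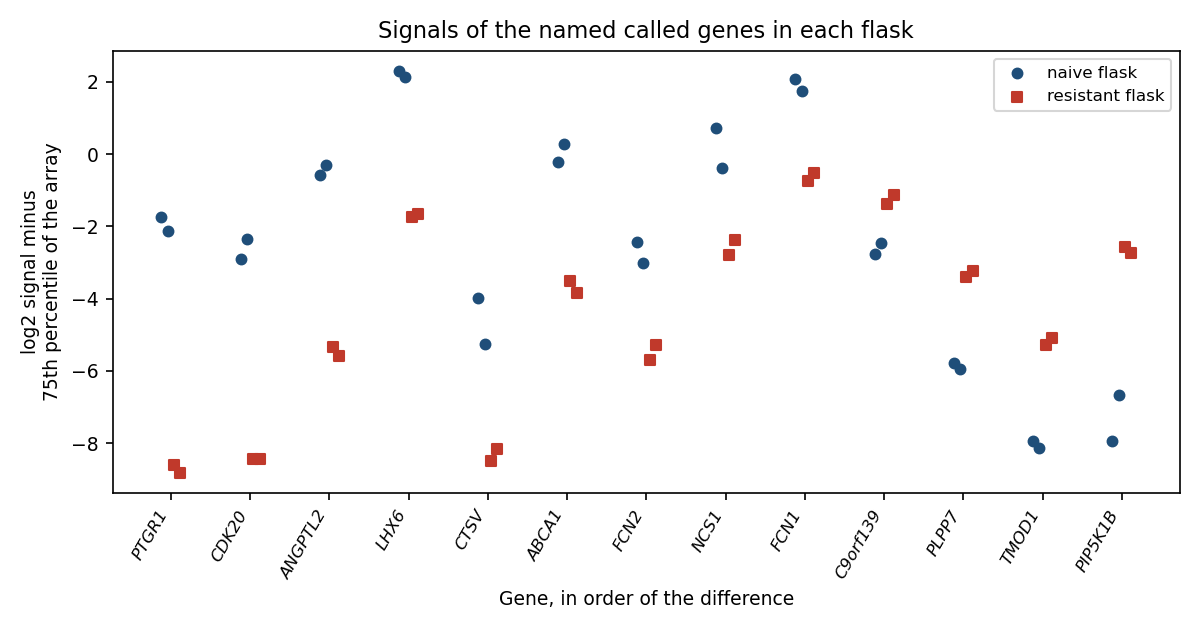
Log2 signal relative to the 75th percentile of the array (y axis) in each of the 2 naive (blue circles) and 2 resistant (red squares) flasks for the 13 called genes chosen by size of change (x axis). The choice of genes required that the lines not overlap or that only a single line be above background. Of the 13 genes 9 fell and 4 rose in the resistant line.

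Promoter sequences are shown for 3 genes that fell and 1 that rose, to let their bases be compared. They are the 250 bases before the annotated start from RefSeq in GRCh38.p14, a build other than that of the probes, at chr9:127122636-127122885 on the minus strand for ANGPTL2, chr9:104928156-104928405 on the minus strand for ABCA1, chr9:134917913-134918162 on the minus strand for FCN1 and chr9:68704990-68705239 on the plus strand for PIP5K1B, where the first of 2 entries was taken. Capitals mark the GC box GGGCGG, searched on both strands, so also as CCGCCC.
ANGPTL2: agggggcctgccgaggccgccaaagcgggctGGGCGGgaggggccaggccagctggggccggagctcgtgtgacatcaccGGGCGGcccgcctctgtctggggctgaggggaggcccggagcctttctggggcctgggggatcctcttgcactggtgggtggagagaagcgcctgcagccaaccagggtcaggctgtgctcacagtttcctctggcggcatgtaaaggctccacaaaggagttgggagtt
ABCA1: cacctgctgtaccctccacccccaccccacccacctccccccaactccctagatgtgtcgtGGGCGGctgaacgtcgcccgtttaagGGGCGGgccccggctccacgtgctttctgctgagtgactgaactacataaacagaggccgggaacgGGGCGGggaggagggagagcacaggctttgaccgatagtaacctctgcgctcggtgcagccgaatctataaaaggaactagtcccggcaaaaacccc
FCN1: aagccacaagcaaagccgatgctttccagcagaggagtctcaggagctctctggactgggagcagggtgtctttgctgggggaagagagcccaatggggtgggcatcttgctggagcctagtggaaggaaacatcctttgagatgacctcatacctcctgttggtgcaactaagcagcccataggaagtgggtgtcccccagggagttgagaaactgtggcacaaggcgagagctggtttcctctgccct
PIP5K1B: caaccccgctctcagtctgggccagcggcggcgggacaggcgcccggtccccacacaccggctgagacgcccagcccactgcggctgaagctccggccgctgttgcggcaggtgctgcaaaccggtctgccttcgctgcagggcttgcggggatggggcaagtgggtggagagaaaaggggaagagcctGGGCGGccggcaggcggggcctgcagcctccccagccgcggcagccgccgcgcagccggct
ABCA1 holds the box 3 times, ANGPTL2 2 times and PIP5K1B once, and FCN1 does not hold these letters in this window. A promoter was found for 317 member genes, and 69.4% of them held the box, beside 63.6% of the promoters of other genes tested on the array and 42.3% of all promoters in the table. Of 21 matched genes called lower 17 held it, and of 4 called higher 2 did.

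Gene lists on the arm describe members of unlike function. The lists, like the arm, were chosen with earlier results of these data known, so their counts are a description only. Every gene is given by its brightest probe, and some genes stand on more than 1 list. The counts below stand beside 76.3% of all genes on the arm and 51.1% of the probes elsewhere that were lower. They also stand beside the 2.97% of all tested probes that were called lower. Both resistant flasks lay below both naive flasks in 50.1% of members and 28.2% of all tested probes. No list was tested against the arm. The leukaemia and blood cell genes had 26 members, of which 22 were lower, with a median of -0.55, beside -0.013 for all other tested probes. The called members were FCN1, FCN2 and VAV2, all lower. SYK and GFI1B were not called, and the lines did not overlap. SYK, a kinase of immune receptors, was at 2.60 and 3.01 against 1.42 and 1.73 (difference -1.23, limma adjusted p = 0.0751). GFI1B is a transcriptional repressor that acts in the development of erythroid cells and platelets (difference -1.24, limma adjusted p = 0.0587). GSN, the actin severing protein gelsolin, was at 5.10 and 4.32 against 3.30 and 3.42 (difference -1.35, limma adjusted p = 0.0974). The differences of NOTCH1, RXRA, the partner of retinoic acid receptors, FPGS, which traps folates in the cell, and ABL1 were -1.05, -0.83, -0.69 and -0.60. For ABL1 the mean over its probes gave -0.35. ANXA1, a phospholipid-binding protein of myeloid cells, was at 2.49 and 1.29 against 0.94 and 1.08, and CARD9, an adaptor of fungal recognition, differed by -0.50. On the other side were GAS1, a growth arrest gene, at 1.60 (limma adjusted p = 0.0998), and TLR4, the receptor for bacterial lipopolysaccharide, at -1.45 and -1.52 against -0.50 and -0.50 (difference 0.98, limma adjusted p = 0.0773).

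In the DNA repair and cell division list all 19 members had negative differences. They ran from -1.45 to -0.021, with a median of -0.42, and SAPCD2 and CDC14B were called. SMC5, a subunit of a chromosome maintenance complex that acts in repair, was at 1.05 and 0.99 against 0.19 and 0.23 (difference -0.80, limma adjusted p = 0.127). CENPP, a centromere protein, differed by -0.61, ANP32B, an acidic nuclear histone chaperone, by -0.53, and RAD23B, which recognises damaged DNA, by -0.27. None of these 4 passed the test. In each the resistant flasks were below the naive flasks, as in 50.1% of members and 28.2% of all tested probes. RMI1, CKS2, FANCC, XPA and SMC2 of the same list overlapped between the lines. A second, dimmer CENPP probe gave 0.26.

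Genes of the protein and RNA machinery lay on the same side. Of 18 members of the ribosome, translation and RNA processing list 15 were lower, with a median of -0.46 and no call. SURF6, a nucleolar protein, differed by -0.87, NCBP1, the larger subunit of the nuclear cap-binding complex, by -0.72, and MRPL41, a mitochondrial ribosomal protein, by -0.62. GLE1, an mRNA export factor, had the largest difference of the list at -1.14 (limma adjusted p = 0.214). Of 23 members of the protein folding, export and degradation list 20 were lower, with a median of -0.35 and CTSV as the only call. TOR1A, a chaperone-like ATPase, was at 1.44 and 0.95 against 0.38 and 0.18, SEC16A, which organises exit sites of the endoplasmic reticulum, differed by -0.73, FBXW5, a ubiquitin ligase subunit, by -0.70, and PSMB7, a proteasome subunit, by -0.50. HSPA5, the main chaperone of the endoplasmic reticulum, overlapped between the lines, at 2.66 and 2.10 against 2.00 and 2.18.

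Metabolic genes were covered by a pair of lists. Of 16 members of the lipid, sphingolipid and eicosanoid list 15 were lower, with a median of -0.49, and ABCA1, PTGR1 and UGCG were called. Under normexp background correction 9 were lower, with a median of -0.19, or -0.33 relative to the other probes. ABCA2, a lipid transporter of lysosomes, was at -0.93 and -0.24 against -2.07 and -2.34 (difference -1.62, limma adjusted p = 0.0551). PTGES2, a prostaglandin E synthase, differed by -0.87 and SPTLC1, a subunit of the enzyme that starts sphingolipid synthesis, by -0.51. Of 18 members of the mitochondrial, metal and redox list 15 were lower, with a median of -0.38 and no call. ASS1, argininosuccinate synthase, was at 2.58 and 2.74 against 1.80 and 1.44 (difference -1.04, limma adjusted p = 0.0953), and MRRF, a mitochondrial ribosome recycling factor, differed by -1.03. SURF1, an assembly factor of cytochrome c oxidase, differed by -0.64. FBP1, a gluconeogenic enzyme, went the other way, at -4.61 and -6.39 against -2.62 and -2.31 (difference 3.04, SE 0.60, limma adjusted p = 0.0568), and was above background in only 1 naive flask.

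The last lists were matrix and transcription factor genes. Of 10 members of the matrix and adhesion list 7 were lower and 3 higher, with a median of -0.19 that turned to 0.091 under normexp background correction, which is -0.042 relative to the other probes. COL27A1, a fibrillar collagen, was at 1.95 and 3.09 against 0.30 and 0.34 (difference -2.20, SE 0.41, limma adjusted p = 0.0486), with -1.02 and no call on a second probe, and TMOD1 was the call on the other side. COL15A1, a basement membrane collagen, was at -6.71 and -5.86 against -4.59 and -4.54 (difference 1.72, limma adjusted p = 0.0568). Of 32 members of the transcription factor list 24 were lower, with a median of -0.32, which became 0.012 under normexp background correction, or -0.12 relative to the other probes. LHX6 and KLF9 were called. The co-repressor TLE1 was at -1.55 and -3.14 against -5.24 and -4.79 (difference -2.67, limma adjusted p = 0.0653), whereas its relative TLE4, on the same arm, was at 0.46 and 0.54 against 1.34 and 1.29 (difference 0.81, limma adjusted p = 0.125). KLF4, a Krüppel-like factor of monocyte development, differed by -0.77 and the homeobox gene BARX1 by 0.99. The COL27A1 call was lost without resistant flask 1 and without resistant flask 2, at adjusted p of 0.178 and 0.179.

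**Figure D5:**
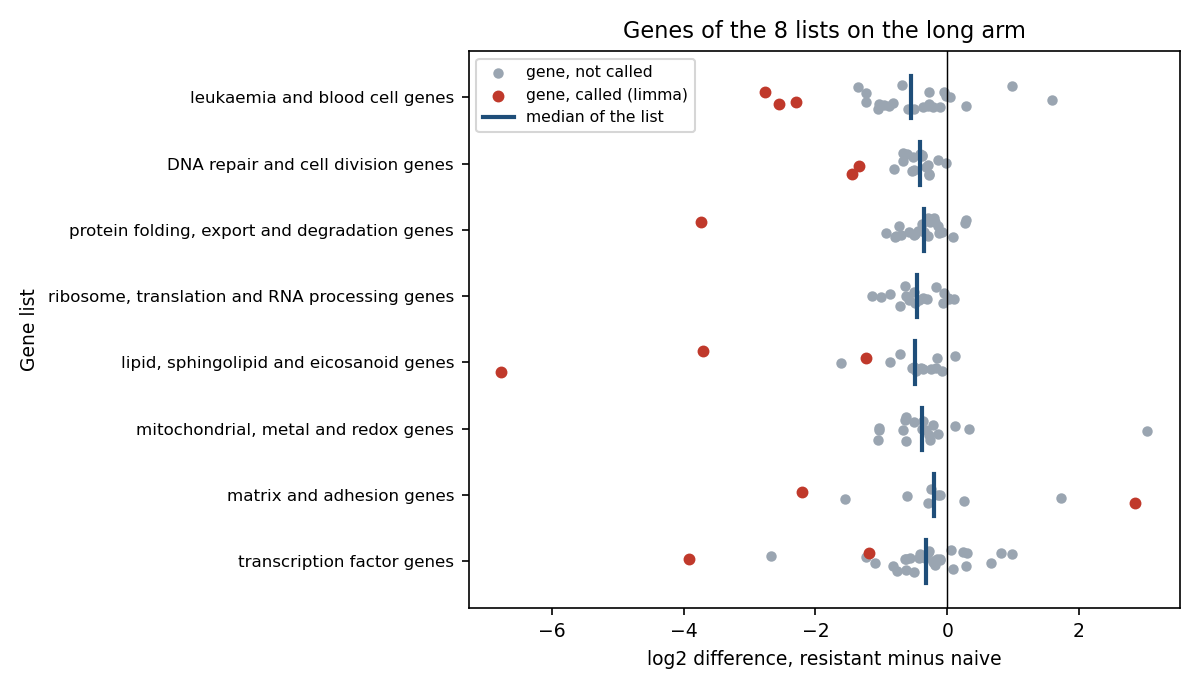
Log2 difference (resistant minus naive, x axis) of the genes of 8 lists on the long arm (y axis). Each point is a gene by its brightest probe, red points were called by limma, and the blue bar is the median of the list, which is below 0 in all 8 lists.

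Values at the borders of the rule were as follows. The last tested probe before the boundary, for CBWD6 at 69238243, had a difference of -0.72, and the first member, the transcript DA093175 at 70618287, one of 0.30. The last member, a probe of the calcium channel gene CACNA1B at 141018581, had -0.50. The dimmest member, a VAV2 probe with a mean level of -7.39, was not well above background in the resistant line and was at least 1.31-fold lower there, and the brightest probe that the filter left out, which has no gene name, had a mean level of -6.13 and a difference of -0.11. Inside the longest run, GBGT1, a glycosyltransferase, was the only called gene, at 0.63 and -0.11 against -1.41 and -1.40 (difference -1.67, SE 0.31, limma adjusted p = 0.0499), and without resistant flask 1 or resistant flask 2 its adjusted p was 0.263 or 0.274. At the ends of the run, BAT2L differed by -0.19 and overlapped between the lines, and SURF4, a cargo receptor of the endoplasmic reticulum, differed by -0.98 (limma adjusted p = 0.178).

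Of the other called members, chosen here after their values were seen, several are named because their function is known. SUSD3, a membrane protein with a sushi domain, was at 4.23 and 4.34 in the naive flasks and 2.45 and 2.68 in the resistant flasks (difference -1.72). SLC2A6, a sugar transporter of lysosomes, was at -3.43 and -4.23 against -6.07 and -6.50 (difference -2.45). NMRK1, a nicotinamide riboside kinase, was at -2.50 and -1.60 against -3.95 and -3.96 (difference -1.90). SLC2A6 was well above background in only 1 resistant flask. For SUSD3, SLC2A6 and NMRK1 both resistant flasks were below both naive flasks, as in 50.1% of members and 28.2% of all tested probes. The remaining calls include 2 unnamed probes near the start of the arm, at 70980771 and 70981279, that rose by 2.76 and 2.10 and lie before PIP5K1B.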

How the data were processed

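RNA of 2 flasks of each line had been labelled with Cy3 and hybridised to one-colour Agilent 44K human arrays, read by Feature Extraction 10.5.1.1 with hg19 positions per the file headers. The deposited scanner files hold intensity values that the authors' software had corrected for background (processed signal), and a deposited log2 table holds the same arrays shifted to the 75th percentile (correlation with the values used here at least 0.9998). Here log2 processed signals were averaged over spots of a probe, control and outlier spots were left out, and the 75th percentile of each array over 41000 probes was subtracted. Probes well above background on both arrays of a line (28220) were fitted with limma 3.58.1 in R 4.3.3 without covariates, and p-values were adjusted by Benjamini-Hochberg over all of them. The limma fit and call were tested on simulated log2 values with known changes, and the other steps were not. The number of arrays limits the precision.

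Members and gene lists were chosen with earlier results of these data known. Genes named were, first, the 6 lowest and 6 highest called genes measured on all arrays, unsaturated and without overlap between the lines. The 4 largest bounds in each direction, genes of the lists, and the first and last member were also named. So were the ends of and calls in the longest run of one sign. Fewer than 6 or 4 met some of these rules. A gene is given by its brightest probe. Symbols were updated by accession through RefSeq for 506 of 691 members. Bounds set the mean of the line with signal against the higher of the dim probe's own value and the lowest signal well above background on that array. The alternatives were another background correction (normexp), normalization, centring, filter, prior, table, test, replicate block, 1 value a gene, and each flask left out. The arrays shared 1 slide, so a slide block was not run.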

Additional observations from a re-analysis of the deposited data

How the results depend on the processing

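The arm median stayed below 0 under every alternative run, from -0.37 to -0.10, and its distance to the other probes ran from -0.33 to -0.17. Normexp background correction shifted the median over all tested probes by 0.15, and scale normalization by 0.10. Under normexp the arm median was -0.10, or -0.23 against the other probes, 0 members were called higher and 0 lower, and the medians in 10 Mb steps from 70 Mb on were -0.079, 0.054 (a changed sign), -0.047, -0.022, -0.087, -0.020, -0.18 and -0.17. BAT2L turned to 0.17. Under normexp 18 of 26 leukaemia and blood cell genes were lower, 19 of 19 DNA repair and 20 of 23 protein folding genes. So were 18 of 18 ribosome, 9 of 16 lipid, 14 of 18 mitochondrial, 4 of 10 matrix and 16 of 32 transcription factor genes. With bright local backgrounds reset before normexp, chosen after seeing the data, 6 members were called higher and 34 lower, the median was -0.20, or -0.23 against the others, and the steps other than that from 120 Mb were -0.29, -0.050, -0.17, -0.14, -0.26, -0.30 and -0.22. Under scale normalization the median was -0.23 and the steps other than that from 90 Mb were -0.41, -0.052, -0.17, -0.31, -0.10, -0.33 and -0.25. Without a filter on dim probes the median was -0.24, or -0.17 against the others, 23 members were called lower, and the steps from 70, 90, 110 and 130 Mb were -0.27, -0.22, -0.22 and -0.31.

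Calls were 3 higher and 17 lower with probes above background on all 4 arrays, 22 lower with the brightest probe of a gene (steps from 70 and 80 Mb -0.43 and -0.023), and 21 lower with the mean over its probes (-0.44 and -0.048). The methods' t-test adjusted by Benjamini-Hochberg called 0 higher and 0 lower (139 members at an unadjusted p below 0.05, and 29 under normexp), and 2-fold without a test gave 26 higher and 88 lower. Leaving out 1 flask gave 6 to 28 higher and 13 to 93 lower, with medians from -0.53 to -0.38 in the step from 70 Mb, -0.11 to -0.054 from 80 Mb, -0.37 to -0.12 from 100 Mb, -0.53 to -0.34 from 130 Mb and -0.44 to -0.25 from 140 Mb. It moved BAT2L between -0.67 and 0.30 (without naive flask 1 and 2) and DA093175 between -0.30 and 0.89. The cause of these changes was not tested.

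Same-numbered flasks share only a number (correlation of their deviations 0.12, over 2 pairs). With the replicate number as a block 9 members were called higher and 30 lower, and the calls of C9orf139, CDC14B, GBGT1, KLF9, SAPCD2 and UGCG were lost. Quantile normalization lost the calls of CDC14B, COL27A1, GBGT1 and NCS1, and the median shift those of GBGT1, KLF9 and UGCG. With the deposited log2 table those of CDC14B and GBGT1 were lost. Of 375 values that 20 called genes took under these settings, 271 kept their call and 104 lost it. A slide block was not run because there was 1 slide. With 2 flasks a line no member under 2-fold passed the test (9 higher and 36 lower also with no minimum fold), and dim probes had only bounds.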
